A study of Danio rerio with 6 samples.

Results

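Amino acid transporter genes were described across 6 liver libraries of zebrafish offspring, taking every gene of the deposited count table whose symbol, in any case, begins with slc1a, slc3a, slc6a, slc7a, slc36a, slc38a or slc43a. These 81 of 32520 genes carry 67 different symbols, since 13 symbols are shared by more than 1 zebrafish gene, and an Ensembl identifier is given beside a shared symbol. The libraries are poly-A RNA-seq of wild-type livers of the AB laboratory strain, 3 from fish sired with fresh sperm (fresh replicates 1 to 3, the control) and 3 from fish sired with cryopreserved sperm (cryo replicates 1 to 3). The labels give no sex, no age and no pooling of fish, and p-values rest on the spread among these 6 libraries. The library titles begin with F for fresh and C for cryopreserved by the treatment label, and if those letters stood for frozen and control every direction below would reverse. Amino acids released from diet or from muscle reach hepatocytes through some of these carriers, and the liver uses these amino acids for plasma proteins, glucose and urea. Other genes taken by the rule encode carriers of serotonin (SLC6A4), creatine (SLC6A8) or purine bases (SLC43A3).

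The families differ in what they move and how. SLC1 proteins carry glutamate or small neutral amino acids, and SLC6 proteins use sodium and chloride to carry glycine, taurine, creatine, neutral amino acids or neurotransmitters. Most SLC7 carriers of neutral amino acids work only when joined to an SLC3 heavy chain, whereas the cationic carriers of SLC7 work alone. SLC38 proteins take up glutamine, alanine and other small neutral amino acids, SLC36 proteins move small amino acids with protons, and most SLC43 proteins let large neutral amino acids pass down their gradient. One gene taken by the rule, SLC7A6OS, is not a carrier and owes its name to lying opposite SLC7A6.

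Total counts were 16885619 to 17606733 in the fresh libraries and 16146121, 8277183 and 10409786 in cryo replicates 1 to 3. Hepatocyte markers were abundant in every library, with a summed level of 251622 to 368232 normalised counts (CPM, per 1e6 counts after TMM scaling). Vitellogenin genes, which encode yolk proteins made by liver under oestrogen, summed to 0.980 to 6.10 CPM in the fresh libraries and 1.62 CPM in cryo replicate 1. The same genes summed to 204562 CPM in cryo replicate 2 and 143655 CPM in cryo replicate 3, so these libraries stand apart from cryo replicate 1. Exocrine pancreas markers summed to 373 to 615 CPM in fresh and to 2897, 1195 and 3714 CPM in cryo replicates 1 to 3. Of these markers 9 of 14 were called higher in cryo by edgeR, beside 1.02% of all tested genes. Their part in the transporter values was not tested. In bulk RNA, fewer cells of a type and less RNA per cell cannot be told apart.

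Of the 81 genes, 40 had enough counts in enough libraries to be tested, 22 had some counts but fell short of this, and 19 had none. Only the serotonin transporter gene SLC6A4 was called, lower in the cryopreserved sperm group. The other tested genes are not thereby shown to be unchanged. The call of SLC6A4 is 1 of 40 tested (2.5%), against 1.98% of all 12674 tested genes (0.963% lower, 1.02% higher) by the same rule. The rule is edgeR's quasi-likelihood test at a Benjamini-Hochberg adjusted p under 0.05. Without adjustment 7 of the 40 had p under 0.05, 4 lower and 3 higher, beside 18.5% of all tested genes (9.29% lower, 9.26% higher). The 40 genes were split by direction, 21 negative and 19 positive (49.9% of all tested genes were negative), with a median log2 change of -0.03 beside 0.00 over all tested genes. The values of the groups did not overlap for 10 of the 40 (25.0%, against 24.6% of all tested genes), 6 of them lower and 4 higher in cryo.

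**Figure D1:**
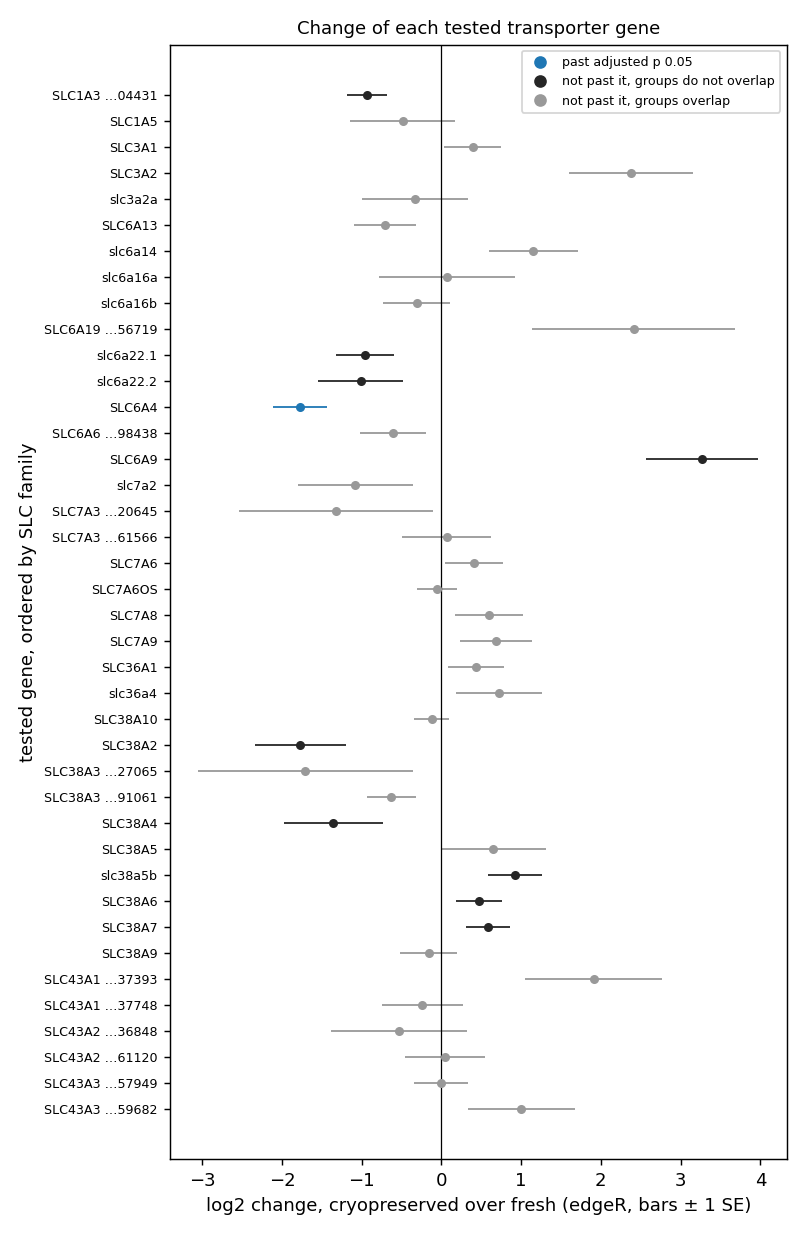
Log2 change (cryopreserved over fresh, horizontal axis) of the 40 tested transporter genes, ordered by SLC family, with bars of 1 standard error from edgeR. Points range from -1.77 for SLC6A4, the single call in blue, to 3.27 for SLC6A9, and fall on both sides of 0.

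SLC6A4, which in mammals returns released serotonin to cells, had 6.41, 9.58 and 12.02 CPM in fresh replicates 1 to 3. In cryo replicates 1 to 3 it had 3.17, 2.27 and 2.66 CPM. Every cryo library was below every fresh library. The mean fell from 9.34 ± 2.82 to 2.70 ± 0.451 CPM (SD, n = 3), a log2 change of -1.77 ± 0.34 (SE, edgeR adjusted p = 0.0467). The direction held under all 16 alternatives run, with log2 changes from -1.98 to -1.51, but the call was kept in 5 of them only, with adjusted p from 0.00178 to 0.211. It was lost on leaving out any single library other than cryo replicate 1, and with RLE factors (0.0511) or limma-voom (0.0662).

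Other genes of serotonin handling, chosen after the SLC6A4 value was seen, give its setting in these livers. Both copies of TPH1, the enzyme that starts serotonin synthesis outside the brain, had no count in any library. DDC, the decarboxylase that completes the synthesis, had 0.588, 7.73 and 11.2 CPM in fresh and 4.21, 0.426 and 0.666 CPM in cryo replicates 1 to 3, and did not pass (edgeR adjusted p = 0.419). Its values overlapped between groups. The gene mao, which encodes the enzyme that breaks serotonin down, had 91.5 to 106 CPM in fresh and 116 to 191 CPM in cryo libraries without passing (edgeR adjusted p = 0.312). Thrombocytes are a known site of serotonin uptake in blood, and their marker itga2b had 0.588 to 2.40 CPM in fresh and 1.33 to 2.55 CPM in cryo libraries. The 8 thrombocyte genes looked up summed to 13.4 to 17.6 CPM in fresh and to 39.6, 20.1 and 16.9 CPM in cryo replicates 1 to 3. The 6 of them that were tested had log2 changes of 0.46 to 1.33 (edgeR adjusted p from 0.15 to 0.702). Their part in the SLC6A4 value was not tested.

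Further SLC6 genes had log2 changes of either sign and did not pass in edgeR with all libraries and the low-count filter. SLC6A9, a glycine transporter gene chosen for its size of change after the values were seen, had 0.118, 0.218 and 0.120 CPM in fresh and 1.16, 2.84 and 0.777 CPM in cryo replicates 1 to 3. All cryo libraries were above all fresh ones, at low counts. Its log2 change of 3.27 ± 0.70 was the largest of the 40 (edgeR adjusted p = 0.062). It met the low-count filter only through the cryo libraries, where it was high, so this rank rests on that group. It passed in edgeR with no low-count filter (adjusted p = 0.039) or without cryo replicate 1 (adjusted p = 0.0488) and by DESeq2 (adjusted p = 0.00741), and the edgeR adjusted p was 0.0776 to 0.241 without any other single library. The pair slc6a22.1 and slc6a22.2 had the most counts of the family. The gene slc6a22.1 had 74.1, 106 and 159 CPM in fresh and 68.3, 38.02 and 67.8 CPM in cryo replicates 1 to 3, a log2 change of -0.96 ± 0.37 (edgeR adjusted p = 0.22). For slc6a22.2 the values were 199, 156 and 204 CPM in fresh and 154, 28.4 and 94.6 CPM in cryo, a log2 change of -1.01 ± 0.54 (edgeR adjusted p = 0.36). Both genes had every cryo library below every fresh one, by a narrow margin in cryo replicate 1 and, for slc6a22.1, also in cryo replicate 3.

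SLC6A13, a carrier of taurine and GABA in mammalian liver, had 11.4 to 26.1 CPM in fresh and 8.54 to 13.2 CPM in cryo libraries (log2 -0.71 ± 0.38). The taurine transporter gene SLC6A6 (ENSDARG00000098438) had 7.17 to 16.1 CPM in fresh and 4.26 to 9.77 CPM in cryo libraries (log2 -0.61 ± 0.42). Neither passed and both overlapped. The orphan carrier gene slc6a16b stood at 17.5 to 22.1 CPM in fresh and at 6.66, 20.0 and 20.9 CPM in cryo replicates 1 to 3, so only cryo replicate 1 was low. The creatine transporter gene SLC6A8 reached at most 0.658 CPM in any library and was not tested.

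SLC6A19, whose product takes up neutral amino acids in gut and kidney of mammals, varied widely between libraries of a group. Its copy ENSDARG00000056719 had 4.94, 0.436 and 0.180 CPM in fresh and 21.7, 6.38 and 1.11 CPM in cryo replicates 1 to 3 (log2 2.41 ± 1.27, edgeR adjusted p = 0.359). Fresh replicate 1 lay above cryo replicate 3. The log2 change was 4.999 without fresh replicate 1 and 1.001 without cryo replicate 1. The broad-range carrier gene slc6a14 had 1.85 to 3.35 CPM in fresh and 6.404, 8.37 and 1.78 CPM in cryo replicates 1 to 3 (log2 1.15 ± 0.56). Of the intestinal markers, FABP6 had no count and FABP2 reached at most 0.163 CPM, while VIL1 had 0 to 0.294 CPM in fresh and 2.91, 0.568 and 3.11 CPM in cryo replicates 1 to 3. Of the whole list of 11 genes 2 were tested, with log2 changes of -0.84 and 1.08 (lowest edgeR adjusted p = 0.117). The gene with the positive change had every cryo library above every fresh one. Over the whole list the summed level was 157 to 263 CPM in fresh and 81.2 to 189 CPM in cryo libraries. Its part in the SLC6A19 and slc6a14 values was not tested.

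**Figure D2:**
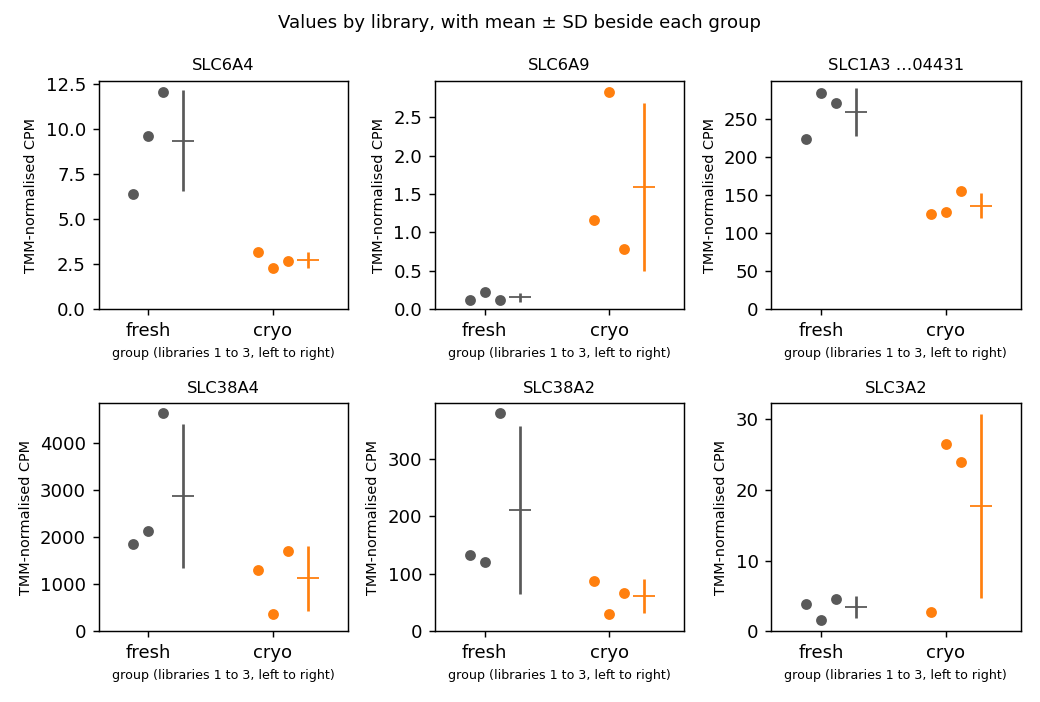
TMM-normalised CPM of 6 transporter genes in each library (vertical axes start at 0), with fresh libraries in grey, cryo libraries in orange, replicates 1 to 3 from left to right, and the mean ± SD beside each group. SLC6A4, SLC1A3, SLC38A4 and SLC38A2 are lower, and SLC6A9 higher, in every cryo library than in any fresh one. SLC3A2 overlaps between groups and is high in cryo replicates 2 and 3 only.

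Among glutamate carriers, the liver libraries held almost all SLC1 counts in 2 genes. SLC1A3 (ENSDARG00000104431), a high-affinity glutamate and aspartate transporter gene best known from glia, had 224, 284 and 270 CPM in fresh and 125, 128 and 155 CPM in cryo replicates 1 to 3. The cryo values were close to each other and all below the fresh ones. Its log2 change of -0.93 ± 0.25 did not pass in edgeR (adjusted p = 0.103), and did by DESeq2 (adjusted p = 0.012), which called 8 transporter genes and 7.66% of all genes. The other SLC1A3 copy and both SLC1A2 genes had no count in any library. SLC1A5, an exchanger of glutamine and other neutral amino acids, had 42.2, 33.0 and 85.3 CPM in fresh and 14.0, 79.9 and 21.4 CPM in cryo replicates 1 to 3. Its groups overlapped widely (log2 -0.48 ± 0.66). The related SLC1A4 was rare, at 0.0544 to 0.120 CPM in fresh and 2.13, 0.568 and 0.555 CPM in cryo replicates 1 to 3. It had too few counts for the edgeR test, which gave an adjusted p of 0.059 with no low-count filter (log2 3.43). It was among the 8 genes called by DESeq2 (log2 3.54, adjusted p = 0.0279). Its raw counts were 2, 1 and 2 in fresh and 33, 4 and 5 in cryo replicates 1 to 3. The call thus rests on the cryo libraries, mostly cryo replicate 1, and is no independent support for a change. The glutamate and cysteine transporter gene SLC1A1, also too low for the edgeR test, reached 0.353 CPM in fresh replicate 1 and 2.26, 2.13 and 0.222 CPM in cryo replicates 1 to 3.

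The SLC38 family took most of the transporter counts, chiefly through SLC38A4, a system A carrier gene that is liver-rich in mammals. SLC38A4 held 57.1%, 59.4% and 68.4% of all counts on the 81 genes in the fresh libraries, and 53.7%, 31.0% and 65.2% in the cryo ones, in replicate order. These are shares of reads, not corrected for transcript length. The gene had 1853, 2137 and 4623 CPM in fresh and 1295, 367 and 1707 CPM in cryo replicates 1 to 3. Every cryo library was lower than every fresh one, but the spread was wide on both sides. The log2 change of -1.35 ± 0.62 did not pass (edgeR adjusted p = 0.293) and its 95% interval ran from -2.78 to 0.08. Without fresh replicate 3 the log2 change was -0.78, and without cryo replicate 2 it was -0.89.

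SLC38A2, the system A gene that in mammalian cells responds to amino acid shortage, followed SLC38A4 in its order of libraries in part. It had 133, 120 and 379 CPM in fresh and 88.2, 29.9 and 67.5 CPM in cryo replicates 1 to 3. The groups did not overlap, and fresh replicate 3 was again the highest and cryo replicate 2 the lowest. The log2 change was -1.77 ± 0.57 (edgeR adjusted p = 0.15, DESeq2 adjusted p = 0.0277), and -0.99 without fresh replicate 3. With SLC38A4 set aside, the other 80 genes still summed to 1391, 1459 and 2134 CPM in fresh and to 1115, 818 and 911 CPM in cryo replicates 1 to 3.

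The 2 genes listed as SLC38A3, a glutamine carrier of system N, behaved unlike each other. The copy ENSDARG00000091061 had 266, 144 and 196 CPM in fresh and 128, 153 and 110 CPM in cryo replicates 1 to 3 (log2 -0.63 ± 0.31, edgeR adjusted p = 0.321). Only cryo replicate 2 reached into the fresh range. The copy ENSDARG00000027065 had 45.7, 86.4 and 55.6 CPM in fresh, 55.0 CPM in cryo replicate 1, and 0.284 and 1.44 CPM in cryo replicates 2 and 3. It was thus nearly silent in the vitellogenin-rich libraries and at the fresh level in cryo replicate 1. The fitted log2 change was -1.71 ± 1.34 (edgeR adjusted p = 0.546) with all libraries, and -6.09 without cryo replicate 1 (edgeR adjusted p = 0.00747). In the fit without cryo replicate 1 this copy met the low-count filter only through the fresh libraries, where it was high. With cryo replicates 2 and 3 both left out the log2 change was -0.15.

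The other SLC38 genes had fewer counts, and their log2 changes were of either sign. The gene slc38a5b, a further system N carrier, had 3.23, 4.25 and 6.10 CPM in fresh and 9.77, 9.22 and 6.77 CPM in cryo replicates 1 to 3 (log2 0.92 ± 0.34, edgeR adjusted p = 0.196). SLC38A6 (log2 0.47 ± 0.29) and SLC38A7, a lysosomal glutamine exporter gene (log2 0.59 ± 0.28), also had all cryo libraries above all fresh ones without passing. SLC38A7 had 4.70 to 5.01 CPM in fresh and 5.77 to 8.35 CPM in cryo libraries. SLC38A9, which in mammals senses arginine at the lysosome for mTORC1, had 4.997 to 8.93 CPM in fresh and 4.59 to 8.23 CPM in cryo libraries (log2 -0.16 ± 0.36). SLC38A10 was the steadiest of the family, at 24.5 to 30.6 CPM in fresh and 25.0 to 26.7 CPM in cryo libraries, with a 95% interval of its log2 change from -0.62 to 0.37.

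**Figure D3:**
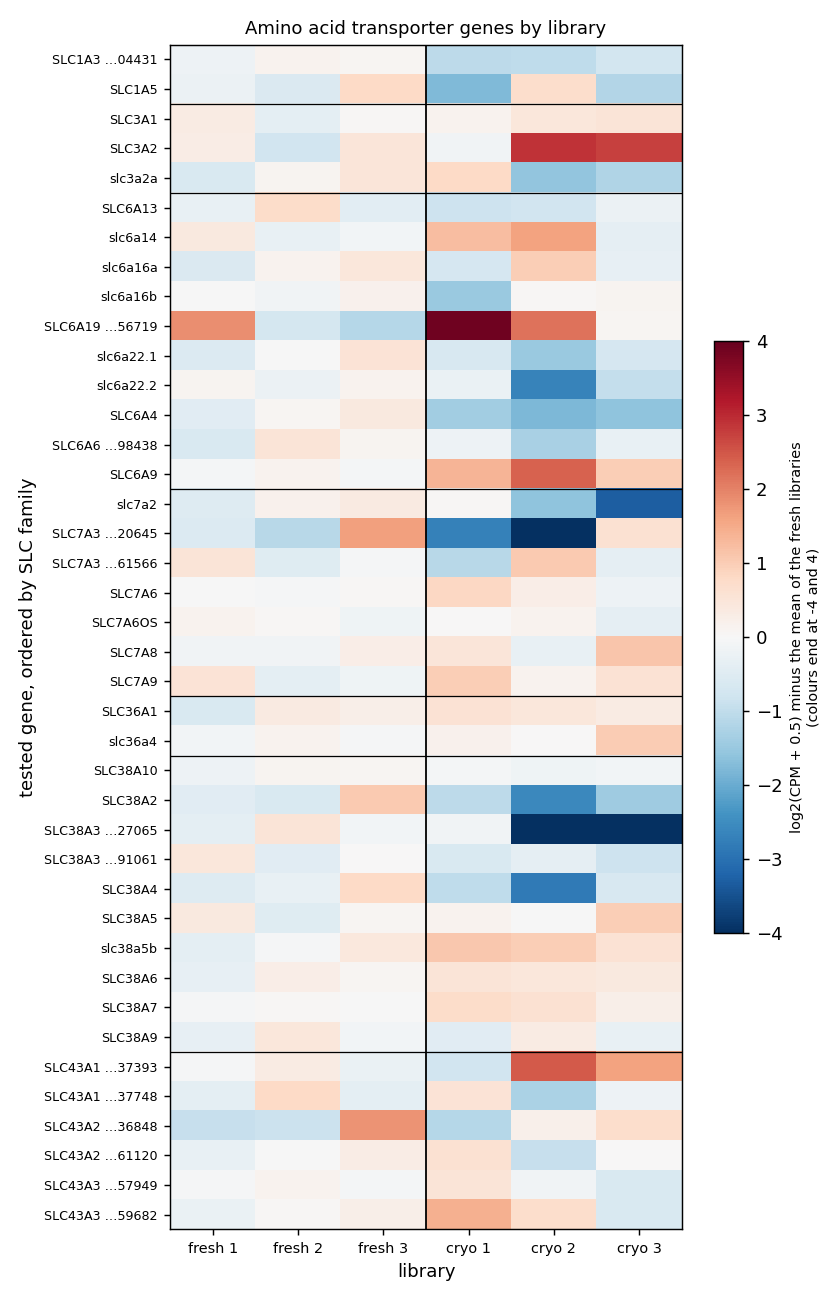
Colour map of log2(CPM + 0.5), relative to the mean of the fresh libraries, for the 40 tested transporter genes (vertical, by SLC family) in the 6 libraries (horizontal), with red above and blue below the fresh mean. SLC3A2 and a SLC43A1 copy are red, and a SLC38A3 copy is deep blue, in cryo replicates 2 and 3 but not in cryo replicate 1.

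Heavy chain genes of the SLC3 family showed a split between copies. SLC3A2 (ENSDARG00000037012), which brings neutral amino acid carriers to the cell surface, had 3.94, 1.63 and 4.61 CPM in fresh and 2.78, 26.5 and 23.9 CPM in cryo replicates 1 to 3. Cryo replicate 1 lay within the fresh range and the vitellogenin-rich libraries far above it. The log2 change was 2.37 ± 0.78 (edgeR adjusted p = 0.158, DESeq2 adjusted p = 0.02), 2.90 without cryo replicate 1 (edgeR adjusted p = 0.0156), and -0.24 with cryo replicates 2 and 3 both left out. The second copy, slc3a2a, had 5.53, 9.36 and 12.4 CPM in fresh and 15.3, 2.55 and 3.44 CPM in cryo replicates 1 to 3 (log2 -0.33 ± 0.66). It was high in cryo replicate 1, where SLC3A2 was low, and low in the other cryo libraries. SLC3A1, the partner of SLC7A9 in cystine and dibasic amino acid uptake, had 2.12 to 3.88 CPM in fresh and 3.30 to 4.44 CPM in cryo libraries (log2 0.39 ± 0.35). SLC7A9 itself had 1.31 to 2.94 CPM in fresh and 2.13 to 4.205 CPM in cryo libraries (log2 0.69 ± 0.45). Both overlapped between groups.

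The light chains given in this paragraph, which pair with SLC3A2, were sparse in these libraries. SLC7A10 (ENSDARG00000008100), a further SLC7 carrier gene for neutral amino acids, reached 8.51 CPM in cryo replicate 2 and is described below. SLC7A5 and SLC7A7, which carry large neutral and cationic amino acids in mammals, and slc7a8b had no count in any library. In the shallowest library a count of 0 allows up to 0.426 CPM (3 counts, counting error only), and how reads shared by near copies were counted is not given in the sources used here. SLC7A8 had 3.06 to 4.25 CPM in fresh and 2.70 to 7.99 CPM in cryo libraries (log2 0.60 ± 0.43), and SLC7A6 had 3.65 to 4.01 and 3.22 to 7.25 CPM (log2 0.41 ± 0.36). The cystine and glutamate exchanger gene slc7a11 stayed at or below 0.444 CPM in all 6 libraries. SLC7A6OS, the gene that is no carrier, changed by -0.06 ± 0.25 on the log2 scale.

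Cationic amino acid carriers, which bring arginine and lysine into cells, varied widely within groups. The gene slc7a2, whose mammalian counterpart has a liver form, had 143, 228 and 263 CPM in fresh and 212, 67.0 and 20.5 CPM in cryo replicates 1 to 3 (log2 -1.08 ± 0.72, edgeR adjusted p = 0.474). Cryo replicate 1 was within the fresh range and the other cryo libraries below it. The log2 change was -2.28 without cryo replicate 1 (edgeR adjusted p = 0.0588) and -0.56 without cryo replicate 3 (edgeR adjusted p = 0.649). SLC7A3 (ENSDARG00000020645) had 61.7, 41.7 and 280 CPM in fresh and 13.3, 3.83 and 136 CPM in cryo replicates 1 to 3 (log2 -1.32 ± 1.22). Replicate 3 was the highest of its group in both cases. Its other copy, ENSDARG00000061566, had 9.64 to 19.9 CPM in fresh and 6.08 to 28.5 CPM in cryo libraries (log2 0.07 ± 0.56).

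The ubiquitous cationic carrier gene has 2 rows. SLC7A1 (ENSDARG00000100227) had 0.109 to 0.412 CPM in fresh and 0.388, 29.1 and 1.89 CPM in cryo replicates 1 to 3, so cryo replicate 2 alone was high. The row slc7a1a had 0.529, 2.40 and 1.26 CPM in fresh and 0.194, 0.142 and 0.222 CPM in cryo, with no overlap. SLC7A10 (ENSDARG00000008100), a carrier gene for small neutral amino acids known from brain and fat, had 0.118 to 0.218 CPM in fresh and 0.518, 8.51 and 3.66 CPM in cryo replicates 1 to 3. With all 6 libraries these genes were below the low-count filter. With no filter SLC7A1 had a log2 change of 5.08 (edgeR adjusted p = 0.0305) and SLC7A10 of 4.67 (edgeR adjusted p = 0.0111), and DESeq2 called both (adjusted p = 0.000447 and 0.000126). On leaving out 1 library under the filter, both passed without cryo replicate 1 (edgeR adjusted p = 0.032 and 0.00787). In that fit they met the filter only through cryo replicates 2 and 3, where they were high. Their passing there is therefore no independent support for a change. Neither passed without any 1 fresh library, with edgeR adjusted p of 0.254 to 0.328 for SLC7A1 and 0.169 to 0.233 for SLC7A10. Without cryo replicate 2 or 3 neither gene met the filter, so neither was tested. These values were chosen after they were seen.

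The SLC43 family had no call among 6 tested genes by edgeR, DESeq2 or limma-voom, which called 1.98%, 7.66% and 2.03% of all genes. At an unadjusted edgeR p under 0.05 there were 0 of the 6, beside 18.5% of all tested genes. From so few genes this is not read as a trait of the family. SLC43A1 (ENSDARG00000037393) had 0.838 to 1.52 CPM in fresh and 0.453, 8.37 and 4.44 CPM in cryo replicates 1 to 3 (log2 1.91 ± 0.86, edgeR adjusted p = 0.286). Cryo replicate 1 was the lowest of all 6 libraries and the others of its group the highest. The value was 2.48 without cryo replicate 1 (edgeR adjusted p = 0.0263) and -1.28 with cryo replicates 2 and 3 both left out. The copy with more counts, ENSDARG00000037748, had 22.9 to 52.6 CPM in fresh and 12.3 to 44.6 CPM in cryo libraries (log2 -0.24 ± 0.51). SLC43A2 (ENSDARG00000036848) had 3.29, 3.48 and 24.8 CPM in fresh and 2.78, 7.80 and 11.4 CPM in cryo replicates 1 to 3 (log2 -0.53 ± 0.85, and 1.15 without fresh replicate 3). Its direction therefore rested on fresh replicate 3, and the copy ENSDARG00000061120 had a log2 change of 0.04 ± 0.51. SLC43A3, which carries purine bases in mammals, had log2 changes of -0.01 ± 0.34 and 0.999 ± 0.67 in its copies ENSDARG00000057949 and ENSDARG00000059682.

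The proton-coupled carrier genes of SLC36 were low and overlapped between groups. SLC36A1, found on lysosomes and the gut surface in mammals, had 2.65, 5.61 and 5.08 CPM in fresh and 6.60, 5.96 and 5.44 CPM in cryo replicates 1 to 3 (log2 0.43 ± 0.35, 95% interval -0.39 to 1.25). The gene slc36a4 had 0.588 to 0.817 CPM in fresh and 0.709 to 1.89 CPM in cryo libraries (log2 0.72 ± 0.54, 95% interval -0.52 to 1.97). Neither passed the test.

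Ratios between copies of a gene were compared in each library for 8 pairs with both members tested, a set chosen after the values were seen. The set leaves out slc6a16a and slc6a16b, which were also both tested. Each copy entered as CPM + 0.5, so the ratio of a copy with few counts depends on that 0.5. In all 8 pairs the ratios of the groups overlapped, and no test is given for pairs chosen in this way. The log2 ratio of SLC3A2 to slc3a2a was -0.44, -2.21 and -1.34 in fresh and -2.26, 3.15 and 2.63 in cryo replicates 1 to 3. For the SLC38A3 copies (ENSDARG00000027065 to ENSDARG00000091061) it was -2.53, -0.74 and -1.81 in fresh and -1.22, -7.62 and -5.83 in cryo. Both pairs kept the fresh ratio, or came near it, in cryo replicate 1 and left it in the vitellogenin-rich libraries. The ratio of the SLC43A1 copies (ENSDARG00000037393 to ENSDARG00000037748) was -4.71 to -3.91 in fresh and -5.56, -0.53 and -2.44 in cryo replicates 1 to 3. It lay below the fresh range in cryo replicate 1 and above it in the other cryo libraries.

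**Figure D4:**
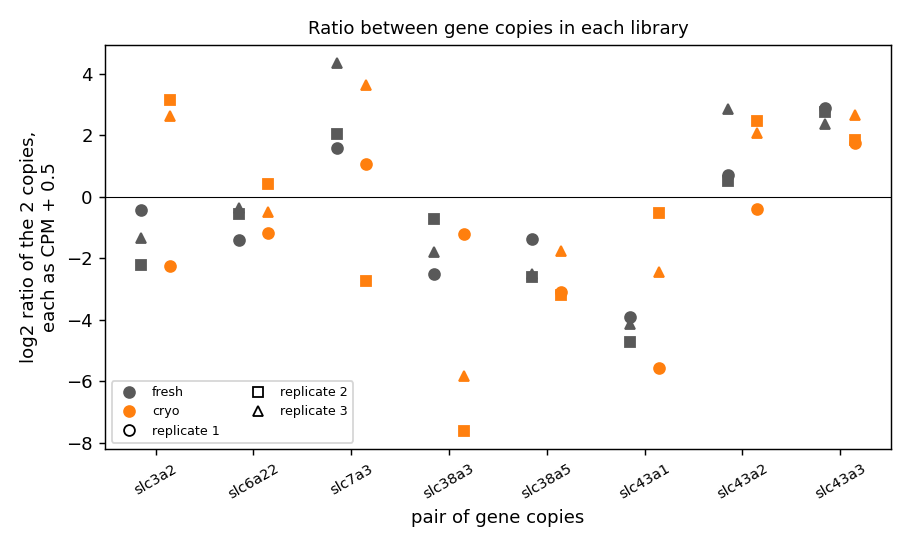
Log2 ratio of 2 copies of a gene (vertical axis, each as CPM + 0.5) for 8 pairs in each library, fresh in grey and cryo in orange, with circles, squares and triangles for replicates 1 to 3. The slc3a2, slc38a3 and slc43a1 ratios of cryo replicates 2 and 3 lie away from the fresh ratios, and that of cryo replicate 1 lies nearer.

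The 19 genes with no count included both SLC1A2 and both SLC38A8 genes, a copy each of SLC1A3 and SLC7A10, slc1a6, slc1a8a, SLC6A3, SLC6A5, slc6a11a, SLC6A15, SLC6A17, SLC6A18, SLC7A5, SLC7A7, slc7a8b and slc7a14b. A further 13 had under 10 reads over all 6 libraries, among them the noradrenaline transporter gene SLC6A2. Of the 9 untested genes with 10 reads or more, SLC1A4 and SLC7A10 were higher in every cryo library than in any fresh one. The gene slc7a1a and the proline transporter gene slc6a7 were lower in every cryo library. Among all tested genes 24.6% did not overlap between groups, and the share among all untested genes was not computed. Reads were few, such as 12, 13 and 10 for slc6a7 in fresh and 4, 4 and 2 in cryo replicates 1 to 3. The gene slc6a7 had 0.598 to 0.708 CPM in fresh and 0.222 to 0.568 CPM in cryo libraries. Neuron markers, 14 genes of which 2 were tested, summed to 10.4 CPM in cryo replicate 1 and to 1.84 to 3.11 CPM in the other libraries.

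The spread within the cryopreserved sperm group was wide for transporter genes. The highest cryo library exceeded the lowest by more than 3-fold in 16 of 40 tested genes (40.0%, against 16.5% of all tested genes, on CPM + 0.5). In the fresh group this held for 4 of 40 (10%, against 5.87%). Cryo replicate 1 was the highest library for 11 of the 40 genes (27.5%, against 16.6% of all tested genes) and fresh replicate 3 for 10 (25.0%, against 13.8%). The library most often lowest was cryo replicate 2, for 12 of the 40 (30%, against 24.0%). Without cryo replicate 1 the called transporter genes rose from 1 of 40 to 7 of the 45 then tested, 2 lower and 5 higher. In that fit 6.6% of all tested genes were called. Those 7 were SLC6A4, SLC3A2, SLC6A9, SLC7A1 and the copies of SLC7A10, SLC38A3 and SLC43A1 described above. SLC7A1 and SLC7A10 were not among the 40. Those genes and SLC6A9 met the filter in that fit only through the cryo libraries, where they were high. The SLC38A3 copy met it only through the fresh libraries, where it was high. The part of all these genes in the rise is therefore no independent support for a change. That fit also holds no cryo library free of vitellogenin RNA.

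Genes around amino acid transport were read from 5 lists. Of 16 tested genes for other amino acid and peptide carriers none passed in edgeR or limma-voom, and the median log2 change was 0.06. DESeq2, which tested a larger set of genes, called 4 of the list, beside 7.66% of all genes. At an unadjusted edgeR p under 0.05 there were 4 of the 16, beside 18.5% of all tested genes. The closest were SFXN1, a mitochondrial serine carrier gene (log2 -1.36 ± 0.35, edgeR adjusted p = 0.0938), and the mitochondrial glutamate carrier gene slc25a22a (log2 -1.70 ± 0.44, edgeR adjusted p = 0.0959). SFXN1 had 9.41, 21.2 and 15.9 CPM in fresh and 7.18, 5.11 and 5.77 CPM in cryo replicates 1 to 3. The gene cltrn encodes collectrin, which SLC6A19 needs at the cell surface in mammalian kidney. It had 2.39 to 2.83 CPM in fresh and 0.776, 0 and 0.111 CPM in cryo replicates 1 to 3 (edgeR adjusted p = 0.114). It met the low-count filter only through the fresh libraries, where it was high, and is named here after its values were seen.

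The amino acid response list held targets of ATF4, the factor that raises transporter genes when amino acids run short. It also held ATF4 itself and regulators upstream of it. Of its 36 tested genes, edgeR called 1 (2.78%, beside 1.98% of all tested genes) and limma-voom 1 (beside 2.03%). DESeq2 called 2 of the list, beside 7.66% of all genes. The edgeR call was eif4ebp1, a repressor of translation initiation (log2 -6.31 ± 0.62, edgeR adjusted p = 0.00479). The gene had 9.23, 9.69 and 13.6 CPM in fresh and 0.129, 0.284 and 0 CPM in cryo replicates 1 to 3. It met the low-count filter only through the fresh libraries, where it was high, so the call and its size rest on that group. The list's median was -0.10, with 19 genes negative and 17 positive. Among 33 tested genes of lysosomal amino acid sensing and mTORC1 none passed in edgeR or limma-voom, and the median was -0.06. DESeq2 called 1 of the list, beside 7.66% of all genes. At an unadjusted edgeR p under 0.05 there were 4 of the 33, beside 18.5% of all tested genes. SAMTOR, which in mammals reports S-adenosylmethionine to mTORC1, had 1.18 to 1.42 CPM in fresh and at most 0.259 CPM in cryo libraries (log2 -3.06 ± 0.71, edgeR adjusted p = 0.0745). It met the low-count filter only through the fresh libraries, where it was high, so the size of its change rests on that group.

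In the list for transporter trafficking and degradation 3 of 15 tested genes were called by edgeR, all higher in cryo, beside 1.02% of all tested genes called higher. DESeq2 called 3 of the list and limma-voom 2, where they called 7.66% and 2.03% of all genes in either direction. SGK2, a kinase gene of the SGK family, whose members raise surface levels of several carriers in mammalian cells, had 2.23, 1.58 and 2.63 CPM in fresh and 7.12, 24.1 and 29.4 CPM in cryo replicates 1 to 3 (log2 3.22 ± 0.55, edgeR adjusted p = 0.0321). The others were tmem176l.2 and tmem176l.4, taken by name, for which no role in carrier trafficking is stated here. RNF5 encodes a ubiquitin ligase that sends SLC1A5 and SLC38A2 to degradation in human cells. It had 10.6, 10.6 and 9.51 CPM in fresh and 4.33, 5.53 and 5.77 CPM in cryo replicates 1 to 3, with no overlap (log2 -0.98 ± 0.26, edgeR adjusted p = 0.102). Of 20 tested genes of the urea cycle and of glutamine and glutamate metabolism 17 were negative (85.0%, beside 49.9% of all tested genes), with a median log2 change of -0.74. Their summed level was 5304, 5062 and 7511 CPM in fresh, 4083 CPM in cryo replicate 1, and 1128 and 2207 CPM in the vitellogenin-rich cryo replicates 2 and 3. The alanine aminotransferase gene GPT (ENSDARG00000019541) was the 1 called by edgeR, lower in cryo (log2 -2.46 ± 0.39, edgeR adjusted p = 0.0257), beside 0.963% of all tested genes called lower. DESeq2 called 5 genes of the list, where it called 7.66% of all genes, and limma-voom called 1, where it called 2.03%. The glutaminase gene GLS2, which splits the glutamine that SLC38 carriers bring in, had 139, 32.2 and 126 CPM in fresh and 9.90, 18.9 and 26.4 CPM in cryo replicates 1 to 3 (log2 -2.43 ± 0.59, edgeR adjusted p = 0.0819).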

How the data were processed

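Liver RNA of 6 libraries was measured by poly-A RNA-seq. The counts the authors deposited are whole numbers per Ensembl gene from HISAT2 alignments, per the file headers, on GRCz11 per the submitters' processing notes. The sources used here give no counting tool, strand setting or annotation release. Overlapping, antisense and near-identical genes may therefore share reads. Symbols came from a name table that matched 29201 of 32520 identifiers. All 21810 genes with a count were screened by filterByExpr. The remaining 12674 were fitted with edgeR 4.0.16 (R 4.3.3): TMM scaling, group as the only term, and two-sided quasi-likelihood tests (cryopreserved over fresh) with p adjusted by Benjamini-Hochberg. The standard error is the log2 change over the square root of F. The biological coefficient of variation was 0.413. The procedure was tested on simulated data. No replicate pair agreed within sampling noise (chi-square per degree of freedom 48.0 to 389.9).

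Genes named are those called, the 3 with most counts in each family, the 5 largest changes each way at a mean of at least 1 CPM, and a fixed set of liver carriers. Values of some members are not reported here. Others are said to have been chosen after their values were seen. The members and lists were chosen with earlier results of these data known. Alternatives were RLE and upper-quartile factors, other filters, DESeq2 1.42.0, limma-voom (limma 3.58.1), a replicate block, each library left out, cryo replicates 2 and 3 left out together (the lone cryo library is then assumed to vary like the fresh ones), thinning, and vitellogenin genes left out. Figures used matplotlib 3.10.9.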

Additional observations from a re-analysis of the deposited data

How the results depend on the processing

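The count of all changed genes, 251, became 705 with no low-count filter, 1162 by DESeq2, 33 with a replicate block, 109 with cryo replicates 2 and 3 left out together, and 32 to 873 on leaving out 1 library. The count of transporter genes called lower, 1, became 0 with limma-voom, RLE or upper-quartile factors, the replicate block, cryo replicates 2 and 3 left out together or vitellogenin genes left out, 3 by DESeq2, and 0 to 2 on leaving out 1 library. The count called higher, 0, became 3 with no low-count filter, 5 by DESeq2, and 0 to 5 on leaving out 1 library. The DESeq2 calls were 8 of 49 transporter genes, where 7.66% of all genes passed, and those with no filter 4 of 62, where 3.23% passed. The causes were not tested. The median log2 change of transporter genes stayed between -0.15 and 0.10. Same-numbered libraries did not deviate together (correlations of deviations -0.07, -0.14 and 0.07), so the numbers are not taken as pairs.

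No reversal below was of a value called by edgeR with all libraries and the low-count filter. SLC3A2 and SLC43A1 (ENSDARG00000037393) passed only in other settings, given above. With cryo replicates 2 and 3 left out together, log2 changes were -0.24 for SLC3A2, 0.78 for slc3a2a, -1.28 and 0.47 for SLC43A1 (ENSDARG00000037393 and ENSDARG00000037748), 0.56 for SLC43A3 (ENSDARG00000057949), 0.043 for slc7a2 and 0.035 for SLC7A6OS. That SLC43A3 copy had 0.028 with RLE factors, 0.029 with vitellogenin genes left out, 0.08 with upper-quartile factors, 0.013 at 1 CPM or more, 0.003 by DESeq2 and 0.16 after thinning. SLC7A6OS had 0.023 with upper-quartile factors and 0.003 after thinning, SLC38A9 0.002 after thinning, and SLC43A2 (ENSDARG00000061120) -0.10 with the replicate block. On leaving out 1 library, the ranges were -1.55 to 0.066 for SLC1A5, -1.58 to 0.11 for slc3a2a, -0.75 to 0.32 for SLC43A1 (ENSDARG00000037748), -1.01 to 1.15 for SLC43A2 (ENSDARG00000036848), -0.38 to 0.27 for SLC43A3 (ENSDARG00000057949), -0.56 to 0.076 for slc6a16b, -3.84 to 0.03 for SLC7A3 (ENSDARG00000020645), -0.12 to 0.10 for SLC7A6OS, -0.47 to 0.44 for SLC43A2 (ENSDARG00000061120) and -0.41 to 0.16 for SLC38A9. Depth was not the only limit for the 22 untested genes with counts, since the filter asks for counts in several libraries. Among them SLC7A1 (ENSDARG00000100227) had 243 reads, 205 of them in cryo replicate 2.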
